A study of Mus musculus with 180 samples.

Results

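CD11b+CD48+SK cells, the donor-derived Sca1+c-kit+ cells that appeared after induction of Hoxb5 in multipotent progenitors (MPP), were compared with wild-type MPP across all genes of a single-cell expression table. The members were taken by population name: 47 CD11b+CD48+SK cells and 41 WT-MPP cells, 88 of the 180 cells used here, the rest being BM HSC (mice 8 weeks old) and FL HSC (fetal liver, Day14.5), both of Rosa LSL-Hoxb5-EGFP/+ genotype like WT-MPP. The CD11b+CD48+SK cells came from primary recipients 8 weeks after transplantation and were gated as donor-derived (CD45.2+, GFP+) cells with Sca1, c-kit, CD48 and CD11b and without other lineage antigens. Those recipients were CD45.1+ mice, lethally irradiated, given Sca1- helper cells and MPP of Mx1cre/Rosa LSL-Hoxb5-EGFP/+ donors, and treated with pIpC, which induces Cre from the Mx1 promoter and so opens the loxP-stop cassette before Hoxb5-EGFP in Rosa26. WT-MPP came untransplanted from 8-week-old Rosa LSL-Hoxb5-EGFP/+ mice, which carry the closed cassette without Cre, and were gated as Lin-CD48-Sca1+c-kit+CD150-CD135+ with CD11b among the lineage antigens. All mice were on a C57BL/6 background. Mx1-driven Cre is not confined to 1 blood cell type, no animal is named for any cell, and the CD11b+CD48+SK cells differ from WT-MPP by transplantation, irradiated host and pIpC as well as by Hoxb5, so these cannot be told apart. Each population therefore counted as 1 sample, and no p-value or standard error between populations is given.

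MPP stand below the haematopoietic stem cell (HSC) in the blood hierarchy. They divide more often than HSC, still give rise to myeloid and lymphoid cells, and start to express low levels of genes of several lineages at once, which is known as lineage priming. Hoxb5 belongs to the Hox family of homeodomain factors, which bind DNA together with Pbx and Meis cofactors, and in normal marrow its expression marks long-term HSC.

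The level of a gene was measured in TPM, a length-normalised share of the transcripts of a cell, and compared on the mean over cells of log2(TPM+1). A difference of 2 is a 4-fold ratio of the geometric means of TPM+1. It reflects the share of expressing cells as well as their level, and need not be a 4-fold ratio of mean TPM. A cell was said to express a gene at a TPM of 1 or more. Of 14825 listed genes, 9632 were expressed in at least 10% of the cells of either population and were compared. Read counts are not kept in TPM and depth cannot be given. Expressed genes differed in number: CD11b+CD48+SK cells ranged from 3039 to 6791 around a median of 4514, and WT-MPP cells from 2615 to 4751 around 3844.

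By the mean of log2(TPM+1) on the deposited scale, genes above WT-MPP outnumbered those below. A difference of 2 or more was found for 510 genes (5.29% of those compared), and a difference of -2 or less for 106 genes (1.1%). The median difference over all compared genes was 0.31. This split depended on how cells were scaled and on how they were averaged. When cells were brought to a common median ratio over the genes they express, the median became -0.046 and the counts 236 higher (2.45%) and 248 lower (2.57%), so that the share of calls that were higher went from 82.8% to 48.8%. Scaling on the 1224 genes expressed in at least 80% of the cells of both populations, a setting chosen after the data were seen, gave 361 higher and 154 lower (70.1% higher). Of the 510 higher genes, 236 stayed past 2 with the median ratio, and 361 with the other scaling. All 106 lower genes stayed past -2 under both, which both scalings favour since they move the all-gene median down. Levels of groups of genes are therefore given beside the all-gene median of 0.31, with the value after scaling by the median ratio, called scaled below.

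The share of expressing cells gave fewer calls. CD11b+CD48+SK cells exceeded WT-MPP by 50 percentage points or more at 72 genes (0.748% of those compared) and fell short by as much at 22 genes (0.228%). Among the 4102 genes expressed in at least 50% of the cells of either population, none had ranges that did not overlap. Of the 510 higher genes, 16 were expressed in no WT-MPP cell, and of the 106 lower genes, 6 were expressed in no CD11b+CD48+SK cell. For 397 of the higher genes both the share of expressing cells and the level within them were higher, and for 82 of the lower genes both were lower.

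**Figure D1:**
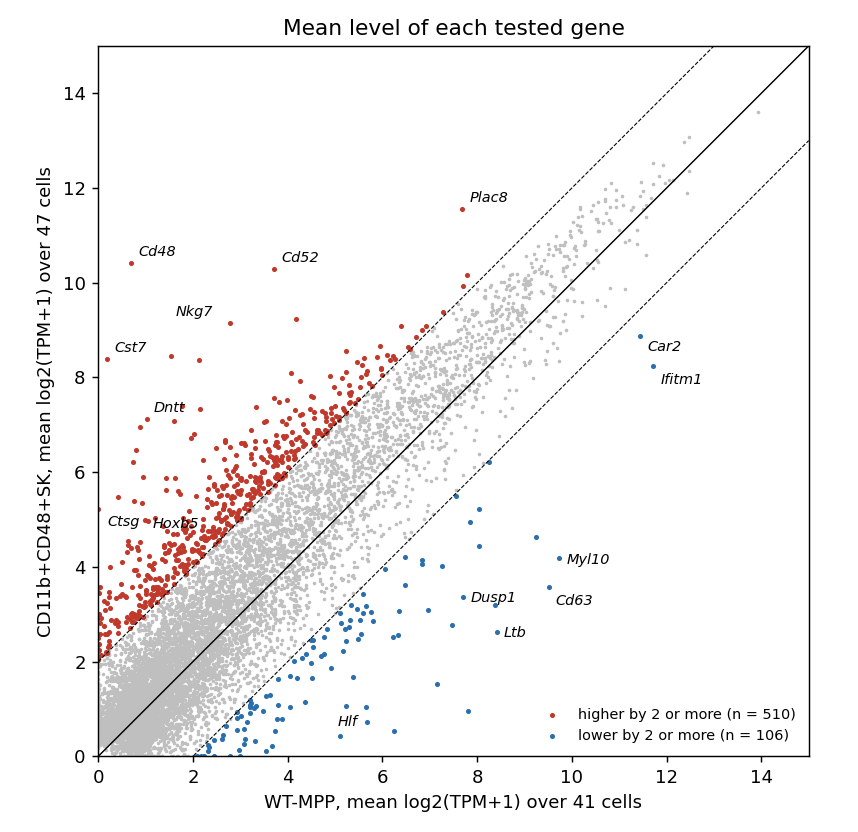
Mean log2(TPM+1) of each of the 9632 compared genes in WT-MPP (horizontal axis, 41 cells) and CD11b+CD48+SK cells (vertical axis, 47 cells), with the line of equality and dashed lines at a difference of 2. The 510 genes above the upper dashed line (red) outnumber the 106 below the lower one (blue), and Cd48 and Cst7 lie farthest above the line of equality among the named genes.

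The induced gene and the gate were read first. Hoxb5, on the plus strand of chromosome 11 (chr11:96303336-96306121 in the GENCODE M21 annotation of GRCm38), ranged from 0 to 191 TPM among CD11b+CD48+SK cells with a median of 65.7. In WT-MPP it ranged from 0 to 159 TPM with a median of 0. It was expressed in 43 of 47 CD11b+CD48+SK cells and 7 of 41 WT-MPP cells, and the difference was 4.43 (scaled 4.0). The ranges overlapped, and 4 CD11b+CD48+SK cells exceeded the highest WT-MPP cell. The table holds 1 value per gene, so the inserted and the endogenous Hoxb5 are not separated.

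Cd48 and Itgam, which encodes CD11b, follow from the sort. Cd48 ranged from 397 to 3752 TPM in the CD11b+CD48+SK cells (median 1517) and from 0 to 629 TPM in WT-MPP (median 0), the largest difference of all at 9.74. Itgam was expressed in 17 of 47 CD11b+CD48+SK cells (36.2%, 95% exact Clopper-Pearson interval 22.7 to 51.5%, which covers the counting of cells only, as do all intervals here) and 2 of 41 WT-MPP cells. Flt3 was expressed in 41 of 47 and 31 of 41 cells, with a difference of 1.22 (scaled 0.32). Kit differed by -1.59 (scaled -2.25), Ly6a, which encodes Sca1, by -0.53 (scaled -1.44) and Ptprc, which encodes CD45, by 0.66 (scaled -0.10). Slamf1, which encodes CD150, was expressed in 3 cells of each population.

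The genes farthest above WT-MPP beyond the gate are described by role. The 20 largest positive differences among the 4102 genes expressed in at least 50% of the cells of either population ran from 9.74 for Cd48 to 4.65 for Cdk6, and 19 of these genes are named here. These genes were chosen on this contrast, so their values are a description. Most of them had smaller differences when TPM was averaged before the log, for example 5.60 for Cd48, 3.06 for Nkg7, 2.65 for Lat2 and 2.14 for Tyrobp. The first after Cd48 was Cst7, on the plus strand of chromosome 2 (chr2:150570415-150578944, GRCm38), which encodes cystatin F, an inhibitor of lysosomal cysteine proteases in immune cells. Cst7 ranged from 0.822 to 1767 TPM in the CD11b+CD48+SK cells (median 353). Among WT-MPP it was expressed in 1 of 41 cells, at 212 TPM, and the difference was 8.19 (scaled 7.75). The CD11b+CD48+SK cells were high almost throughout, with 38 of 47 above the single expressing WT-MPP cell. The 250 bases before its start site are shown as the promoter of the gene with the largest difference in mean log2(TPM+1) after the sort marker Cd48. They come, like all promoters here, from RefSeq on GRCm38.p6, are written 5′ to 3′ on the strand of the gene, and hold no capitals because no motif was marked.
Cst7 (chr2:150570165-150570414, plus strand): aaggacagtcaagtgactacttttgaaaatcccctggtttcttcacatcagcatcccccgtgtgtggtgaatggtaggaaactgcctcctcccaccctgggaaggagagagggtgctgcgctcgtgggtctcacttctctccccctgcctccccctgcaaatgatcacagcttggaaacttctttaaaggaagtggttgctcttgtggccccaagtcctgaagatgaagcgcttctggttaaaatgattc

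Surface and granule proteins of lymphocytes followed. Cd52, a small glycoprotein of the lymphocyte surface, ranged from 193 to 2911 TPM in the CD11b+CD48+SK cells (median 1448) and from 0 to 668 TPM in WT-MPP (median 8.31), a difference of 6.56 (scaled 5.85). Nkg7, a membrane protein of cytotoxic granules, ranged from 0 to 4176 TPM (median 1024) and from 0 to 1308 TPM (median 0), a difference of 6.37 (scaled 5.94). For Cd52, 40 of 47 CD11b+CD48+SK cells exceeded the highest WT-MPP cell, but for Nkg7 the number was 14, and 18 of 41 WT-MPP cells expressed it. Cst7 and Nkg7 were expressed together in 45 of 47 CD11b+CD48+SK cells (95.7%, 85.5 to 99.5%) and in none of the 41 WT-MPP cells (upper limit 7.32%, from 3 cells of the total). Each of these genes was expressed in nearly all CD11b+CD48+SK cells, which makes a high joint count likely. Of the T-cell receptor chains, Cd3d was expressed in 1 of 47 CD11b+CD48+SK cells and Cd3g in none, Cd3e was not analysed here, and the NK receptor chain Klrd1 was expressed in 2.

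Signalling adaptors and inhibitors of immune receptors were also among the highest. Lat2, an adaptor phosphorylated after ITAM receptors are engaged, ranged from 0.722 to 1019 TPM (median 428) in the CD11b+CD48+SK cells and from 0 to 899 TPM (median 0) in WT-MPP, a difference of 6.23 (scaled 5.85). Tespa1, which acts in antigen-receptor signalling in thymocytes, was expressed in 44 of 47 and 6 of 41 cells and differed by 5.67. Tyrobp, the ITAM adaptor DAP12, was expressed in 45 of 47 and 15 of 41 cells and differed by 5.18. Lat2 and Tyrobp overlapped widely, and only 3 and 1 of the CD11b+CD48+SK cells exceeded the highest WT-MPP cell. Tnfaip8l2, a restrainer of innate and adaptive immune signalling, differed by 5.49, Gpr97, an adhesion receptor of granulocytic cells, by 6.08, and the C-type lectin-region gene BC035044 by 4.77. The chemokine Ccl9 was expressed in 47 of 47 CD11b+CD48+SK cells and 10 of 41 WT-MPP cells, with medians of 301 and 0.301 TPM and a difference of 5.65. Lgals1, which encodes galectin-1, had medians of 728 and 8.76 TPM and a difference of 5.07.

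Granulocyte, mast-cell and early lymphoid genes were also among the highest, with levels that varied widely from cell to cell. Mpo, the myeloperoxidase of azurophil granules, ranged from 0 to 4282 TPM in the CD11b+CD48+SK cells (median 110) and from 0 to 386 TPM in WT-MPP (median 0). Dntt, the terminal transferase of early lymphoid cells, ranged from 0.355 to 5177 TPM (median 262) and from 0 to 342 TPM (median 0). Their differences were 5.49 (scaled 5.07) for Mpo and 6.10 (scaled 5.55) for Dntt. The spread within the CD11b+CD48+SK cells was large for both, with SDs over cells of 3.85 and 3.66 on the log2 scale. The share of cells expressing Mpo was 91.5% (79.6 to 97.6%) against 9.76% (2.72 to 23.1%), the latter 4 of 41 cells. The mean log2 level within expressing cells differed by -0.14, a mean that includes CD11b+CD48+SK cells with little Mpo. At a TPM of 10 or more, a limit added after the data were seen, 31 of 47 and 4 of 41 cells had Mpo. At 100 or more these numbers were 25 and 3, so the share depended on the limit.

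Ctsg, the granule protease cathepsin G, was expressed in 39 of 47 CD11b+CD48+SK cells and was listed at 0 in all 41 WT-MPP cells (upper limit 7.32%). Its level in the CD11b+CD48+SK cells ran from 0 to 3470 TPM with a median of 8.98. Cpa3, the carboxypeptidase of mast-cell granules, ran from 0 to 9063 TPM with a median of 13.9, and was expressed in 41 of 47 CD11b+CD48+SK cells and 3 of 41 WT-MPP cells. In the plot of the higher genes by cell, Ctsg falls into a low and a high range with no cell between, so that its mean describes few cells.

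**Figure D2:**
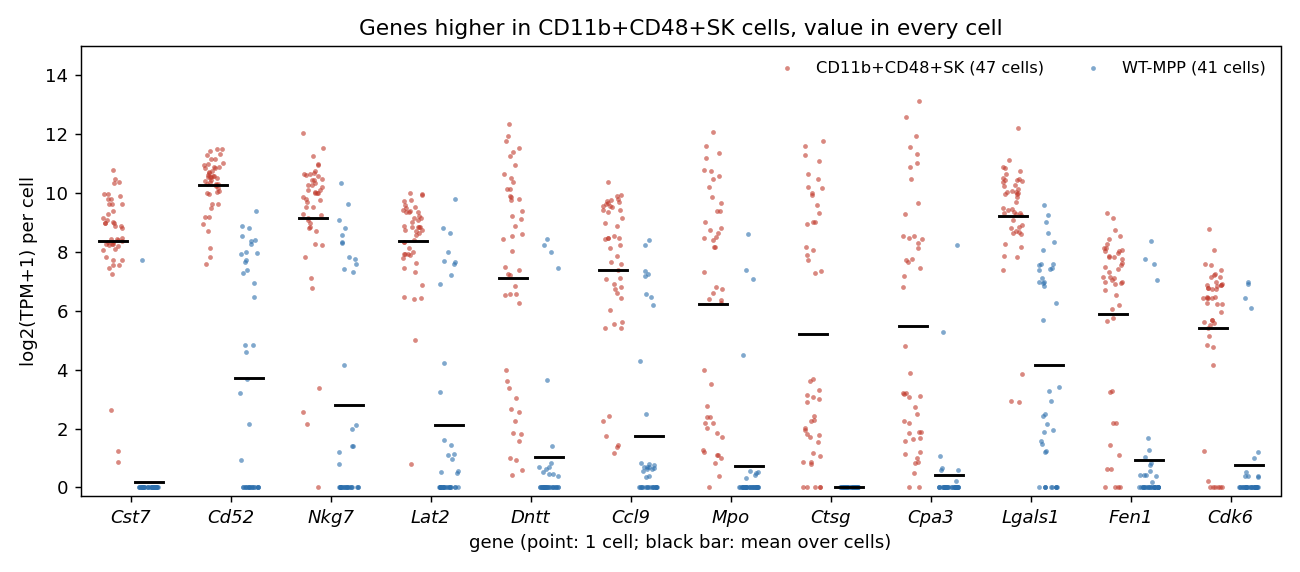
Value of 12 of the higher genes in every cell, as log2(TPM+1), with CD11b+CD48+SK cells in red (47), WT-MPP in blue (41) and the mean over cells as a black bar. Cst7 and Cd52 were high in nearly every CD11b+CD48+SK cell, whereas Mpo, Dntt, Ctsg and Cpa3 spread from near 0 to above 11 on this scale.

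At a TPM of 1 or more, Mpo and Dntt were expressed together in 40 of 47 CD11b+CD48+SK cells (85.1%, 71.7 to 93.8%), with Mpo alone in 3 and Dntt alone in 4. In WT-MPP 2 of 41 cells expressed both (4.88%, 0.596 to 16.5%) and 33 expressed neither. Ctsg and Dntt were found together in 38 of 47 CD11b+CD48+SK cells (80.9%, 66.7 to 90.9%), and Mpo and Cpa3 in 37 (78.7%, 64.3 to 89.3%). Mpo, Ctsg, Cpa3 and Dntt were all 4 expressed in 32 of 47 CD11b+CD48+SK cells, 3 of them in 10 cells, and at least 1 in every cell. In WT-MPP no cell expressed more than 2 of them and 31 of 41 expressed none. Each of the 4 genes was expressed in most CD11b+CD48+SK cells at this limit, which makes high joint counts likely. These counts depended on the limit, and higher limits were added after the data were seen. Mpo and Dntt were found together in 22 of 47 CD11b+CD48+SK cells at a TPM of 10 or more and in 14 at 100 or more, and all 4 genes in 7 and 4 cells. Spearman's rho over the 47 cells was -0.28 between Mpo and Dntt, -0.11 between Ctsg and Dntt and 0.68 between Mpo and Ctsg, values that share each cell's library.

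Lineage markers as a whole were mixed. Of 34 listed myeloid markers 22 were compared, and 7 (31.8%, against 5.29% of all genes) were higher by 2 or more (6 scaled) and 1 (4.55%, against 1.1%) lower, with a median of 1.0 (scaled 0.76). Beside Mpo, Ctsg and Tyrobp they included Plac8, with a median of 3008 TPM against 419 and a difference of 3.86, and Itgb2, the partner chain of CD11b, at 2.48. Cd63, a granule tetraspanin, was the lower one. Other defining markers did not follow: Elane and Csf1r were listed at 0 in every cell of both populations, Lyz2 was expressed in every cell of both, and Prtn3 in 44 of 47 and 41 of 41 cells with a difference of -1.25. Whether a 0 in every cell means no transcript or a gene that was not measured was not tested. The summed level of the myeloid list ran from 3300 to 16303 TPM in the CD11b+CD48+SK cells and from 77.7 to 8621 TPM in WT-MPP.

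Of 22 early lymphoid markers 15 were compared, with 5 (33.3%, against 5.29% of all genes) higher by 2 or more and 1 (6.67%, against 1.1%) lower (2 scaled), and a median of 1.22 (scaled 0.40). Satb1, a chromatin organiser needed for lymphoid development, differed by 3.14, and Il12a, the p35 chain of interleukin 12, by 3.54. The lower marker was Ltb, which is also in the list of adult HSC genes, since some genes are in more than 1 list. Il7r was expressed in 2 of 47 CD11b+CD48+SK cells and Rag1 in none, while Rag2 was found in 5 of 47. The summed level ran from 352 to 9288 TPM and from 23.1 to 6764 TPM in WT-MPP.

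The lists of other cell types had few compared genes, so that 1 call makes up a large share of a list, and they are read against 5.29% of all genes higher and 1.1% lower. Among markers of mast cells and basophils 5 of 8 were compared and 1 (20%), Cpa3, was higher by 2 or more. Mcpt8, a basophil protease, was expressed in 17 of 47 CD11b+CD48+SK cells and Ms4a2, the beta chain of the IgE receptor, in 5, and both were listed at 0 in all WT-MPP cells. Of the T- and NK-cell markers 3 of 17 were compared, and 2 (66.7%), Cst7 and Nkg7, were higher by 2 or more. Of the B-cell markers 3 of 12 were compared and 1 (33.3%) was higher by 2 or more, Cd72 at 4.03, while Cd79a was listed at 0 in both populations and Vpreb1 was expressed in 4 of 47 and 1 of 41 cells. Of the erythroid markers 6 of 11 were compared and 1 (16.7%) was lower by 2 or more, the carbonic anhydrase gene Car2, with medians of 601 and 3425 TPM and a difference of -2.57 (scaled -3.58). Klf1 and Gata1 were each expressed in 3 of 47 CD11b+CD48+SK cells and no WT-MPP cell. Of the dendritic-cell markers 7 of 15 were compared and none passed 2 in either direction, and Zbtb46 was listed at 0 throughout. Of the megakaryocyte markers 11 of 16 were compared, with 1 (9.09%) higher by 2 or more, Selp, which encodes P-selectin, at 2.18 (scaled 1.91), 1 (9.09%) lower, and a median of -0.33. The part of contaminating cells of these types in the results was not tested.

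Genes of DNA replication were higher as a group. Of 66 S phase and DNA replication genes 65 were compared, and 36 (55.4%) were higher by 2 or more, where the share over all genes was 5.29%. None was lower by 2 or more, 62 lay above the all-gene median, and the median difference was 2.23 (scaled 1.64). The largest was Fen1, the flap endonuclease that trims Okazaki fragments, with medians of 136 and 0 TPM and a difference of 4.96 (scaled 4.45). Tipin, of the fork protection complex, differed by 4.8, and the licensing factor Cdt1 by 3.75, being expressed in 31 of 47 and 2 of 41 cells. Among the helicase subunits, Mcm7 differed by 3.74, Mcm3 by 3.43, Mcm5 by 3.10 and Mcm6 by 2.57. The nucleotide enzymes Tk1 and Rrm2 were expressed in 24 and 25 of 47 CD11b+CD48+SK cells and in no WT-MPP cell.

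Mitosis genes were higher to a smaller extent. Of 74 genes 67 were compared, 13 (19.4%, against 5.29% of all genes) were higher by 2 or more (9 scaled), none was lower by 2 or more, and the median was 1.12 (scaled 0.80). The Cdk-binding subunits Cks1b and Cks2 led with 3.67 and 3.54, followed by the kinetochore gene Cenph at 3.05. Cdk1, the kinase that drives entry into mitosis, was expressed in 28 of 47 and 2 of 41 cells and differed by 2.91.

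The number of expressed genes moved with these groups. Among the 33 CD11b+CD48+SK and 35 WT-MPP cells within the common range of 3039 to 4751 expressed genes, the median of the S phase list was 1.15, with 9 of 65 genes (13.8%) higher by 2 or more, and that of the mitosis list 0.53, with 3 of 67 (4.48%). In the same cells 2.48% of all genes were higher by 2 or more, so that the mitosis count was near the background. The all-gene median in these cells was 0.065. The part of depth in these differences was not tested. The summed level of the S phase list, which does not count genes, was 5781 TPM at the median of CD11b+CD48+SK cells (1116 to 16336) and 3093 TPM in WT-MPP (663 to 9238), and that of the mitosis list 9868 TPM (3504 to 42897) and 4649 TPM (2461 to 32717).

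Per cell, the CD11b+CD48+SK population was spread over the whole range of cycling genes while WT-MPP were nearly all at its lower end. The number of expressed S phase genes had a median of 41 in the CD11b+CD48+SK cells (10 to 61) and 18 in WT-MPP (10 to 41), and 23 of 47 CD11b+CD48+SK cells exceeded the highest WT-MPP cell. Within the common range of gene number the medians were 33 (10 to 54) and 18 (10 to 41). The number of expressed mitosis genes had a median of 22 (10 to 65) and 11 (8 to 42), and 10 CD11b+CD48+SK cells exceeded the highest WT-MPP cell. The lowest CD11b+CD48+SK cell had as few S phase genes as the lowest WT-MPP cell. Higher numbers than in WT-MPP were not particular to the CD11b+CD48+SK cells. FL HSC had medians of 39 S phase (20 to 63) and 19.5 mitosis genes (10 to 69), and BM HSC 25 (9 to 60) and 14 (7 to 34). Across the 47 CD11b+CD48+SK cells the number of S phase genes followed the number of mitosis genes (Spearman's rho 0.84) and the number of all expressed genes (0.84), counts that share each cell's library.

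**Figure D3:**
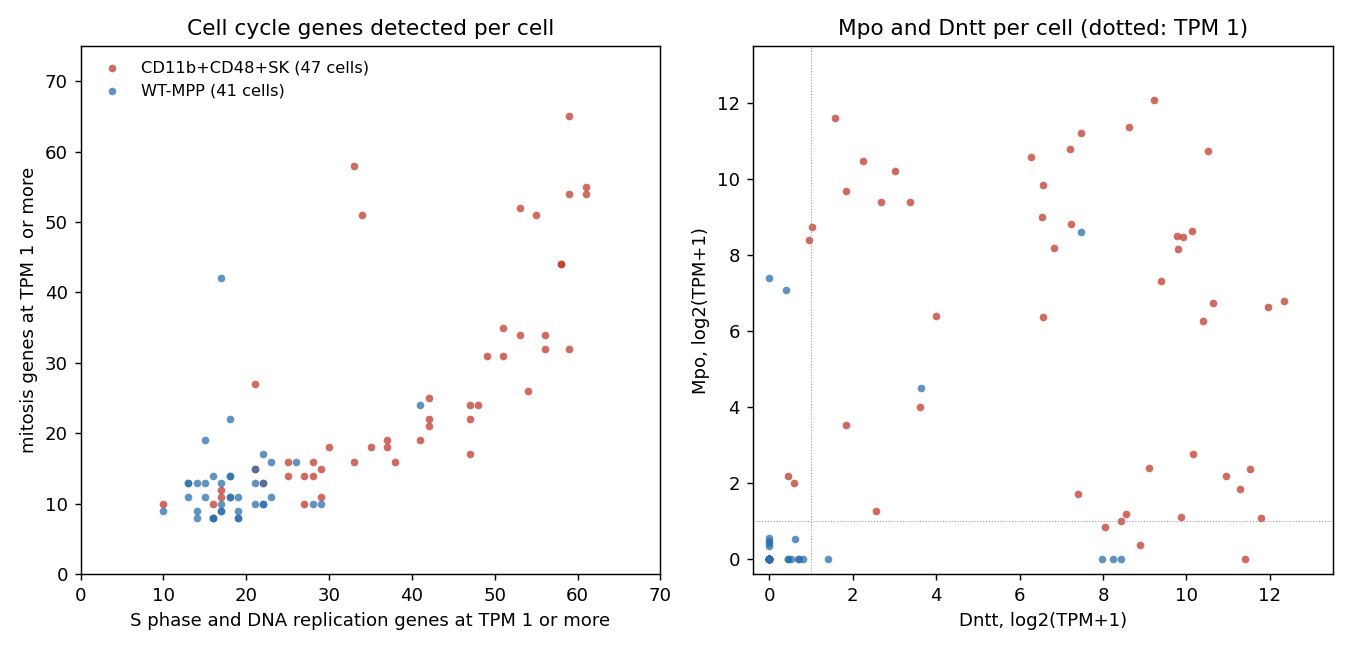
Left, number of S phase and mitosis genes expressed in each cell; right, Mpo against Dntt in each cell as log2(TPM+1), with dotted lines at a TPM of 1 (red, 47 CD11b+CD48+SK cells; blue, 41 WT-MPP cells). The CD11b+CD48+SK cells reach 61 S phase and 65 mitosis genes against 41 and 42 in WT-MPP, and 40 of the 47 express both Mpo and Dntt.

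The promoters of replication and mitosis genes are shown because these genes were higher together and their known regulators bind short motifs near the start site. Matches on either strand to the E2F motif (TTTGGCGC or TTTCGCGC), which binds factors of the G1 to S transition, were found within 250 bases before and 50 after the start in 11 of 54 S phase genes with a promoter (20.4%). The share was 1.86% of the 7779 compared genes with a promoter and 0.833% of all 27025 promoters. Capitals mark the motif, which in the fork helicase genes lies 153 and 149 bases before the start in Mcm5, as overlapping matches on opposite strands, and 110, 106 and 47 bases before it in Mcm6.
Mcm5 (chr8:75109259-75109508, plus strand): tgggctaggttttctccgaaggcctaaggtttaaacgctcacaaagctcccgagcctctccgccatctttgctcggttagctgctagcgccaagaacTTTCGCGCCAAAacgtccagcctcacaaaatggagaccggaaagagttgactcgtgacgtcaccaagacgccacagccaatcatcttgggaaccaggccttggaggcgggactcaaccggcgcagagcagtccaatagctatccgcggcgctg
Mcm6 (chr1:128359706-128359955, minus strand): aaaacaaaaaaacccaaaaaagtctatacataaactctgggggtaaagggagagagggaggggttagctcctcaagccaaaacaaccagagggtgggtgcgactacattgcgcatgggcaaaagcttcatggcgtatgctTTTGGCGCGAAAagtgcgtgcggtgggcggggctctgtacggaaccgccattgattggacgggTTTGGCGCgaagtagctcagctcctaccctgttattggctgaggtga

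The CHR motif (TTTGAA), which recruits the complexes that time mitotic genes, was found on either strand in 36 of 59 mitosis genes with a promoter (61.0%), against 12.5% of the compared genes and 18.1% of all promoters. In the promoters of Cks1b and Cdk1 it occurs 77 and 17, and 71 and 15 bases before the start.
Cks1b (chr3:89418292-89418541, minus strand): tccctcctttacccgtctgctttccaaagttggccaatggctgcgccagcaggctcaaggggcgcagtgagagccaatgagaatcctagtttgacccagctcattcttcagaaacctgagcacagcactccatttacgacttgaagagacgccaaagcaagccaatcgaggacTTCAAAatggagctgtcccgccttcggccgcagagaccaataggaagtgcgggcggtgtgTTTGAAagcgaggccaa
Cdk1 (chr10:69352913-69353162, minus strand): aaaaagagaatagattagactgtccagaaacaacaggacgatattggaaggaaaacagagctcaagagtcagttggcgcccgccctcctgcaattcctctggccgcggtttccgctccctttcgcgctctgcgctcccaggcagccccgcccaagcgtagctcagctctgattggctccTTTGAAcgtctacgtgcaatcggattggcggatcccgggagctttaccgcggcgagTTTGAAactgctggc

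A match is a description of these letters, not a site or a cause. The median difference was 2.39 in S phase genes with the E2F motif and 1.98 in the other 43, and 0.89 in mitosis genes with the CHR motif and 1.27 in the other 23, so that the direction differed between the motifs. Matches to a composite Hox and Pbx motif (TGATTGAT or TGATTTAT, both strands) were present in 2 of 413 promoters of the higher genes (0.484%), in 0 of 83 of the lower genes and in 0.758% of those of all compared genes.

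Regulators of the G1 phase differed individually. Cdk6, the D-cyclin partner kinase that acts on exit from quiescence, was on chromosome 5 (chr5:3341485-3531008, plus strand) and among the 20 highest genes. It ranged from 0 to 441 TPM in the CD11b+CD48+SK cells (median 85.2) and from 0 to 125 TPM in WT-MPP (median 0), was expressed in 40 of 47 and 5 of 41 cells, and differed by 4.65 (scaled 4.16). Cdk6 and Hoxb5 were expressed together in 37 of 47 CD11b+CD48+SK cells, Cdk6 alone in 3, Hoxb5 alone in 6 and neither in 1. No WT-MPP cell expressed both, 5 expressed Cdk6 alone and 7 Hoxb5 alone. Each gene was expressed in most CD11b+CD48+SK cells, which makes a high joint count likely, and a link between the genes was not tested. Ccne2, which encodes cyclin E2, was expressed in 19 of 47 CD11b+CD48+SK cells and no WT-MPP cell. Over the 29 compared G1 cyclins and Cdk inhibitors 2 (6.90%, against 5.29% of all genes) were higher by 2 or more and none lower, with a median of 0.81 (scaled 0.51). E2f1 and the pocket-protein gene Rbl1 differed by 1.89 and 1.80, while Btg1 and Cdkn1b, both brakes on proliferation, differed by -1.79 (scaled -2.36) and -1.76 (scaled -2.33).

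The genes farthest below WT-MPP were led by genes of stem cells and early progenitors. Among the 20 largest negative differences, 19 genes are named here, and these ran from -5.93 for Cd63 to -3.47 for Ifitm1.

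Genes known from HSC were among them. Hlf, a bZIP factor of HSC, had medians of 104 TPM in WT-MPP and 0 in the CD11b+CD48+SK cells, with 36 of 47 of these below the lowest WT-MPP cell, and differed by -4.95 (scaled -5.56). Pdzk1ip1 ranged from 2.86 to 2157 TPM in WT-MPP and from 0 to 397 TPM in the CD11b+CD48+SK cells, a difference of -5.62. Myl10, a myosin light chain, had medians of 1618 and 55.8 TPM and a difference of -5.56, and Procr, the endothelial protein C receptor, medians of 106 and 0 TPM and a difference of -4.16. Hlf and Pdzk1ip1 were thus low in most CD11b+CD48+SK cells, whereas Myl10 was still expressed in 29 of 47.

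Of 31 listed adult HSC genes 23 were compared, 9 were lower by 2 or more (12 scaled), where the share over all genes was 1.1%, and 1 was higher, Hoxb5 itself. The median was -1.67 (scaled -2.04) and 2 of the 23 lay above the all-gene median. The number of expressed genes of the list per cell had a median of 7 in the CD11b+CD48+SK cells (3 to 12) and 13 in WT-MPP (10 to 20), and 40 of 47 CD11b+CD48+SK cells were below the lowest WT-MPP cell. The list differed by -1.71 in the common range of gene number. Hlf was expressed in 37 of 41 WT-MPP cells, Procr in 33 and Mecom in 14, so WT-MPP cells also expressed HSC genes, while Slamf1 was expressed in 3 of 41.

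The lymphotoxin chain Ltb ranged from 0 to 3685 TPM in WT-MPP (median 538) and from 0 to 995 TPM in the CD11b+CD48+SK cells (median 0), a difference of -5.78 (scaled -6.56). Cd63 had medians of 1015 and 2.66 TPM and a difference of -5.93. Serpinf1, which encodes the secreted factor PEDF, was expressed in 36 of 41 WT-MPP cells and 5 of 47 CD11b+CD48+SK cells and differed by -5.71. Ldhb, the heart-type lactate dehydrogenase chain, had medians of 581 and 0.847 TPM and a difference of -5.17. The immune GTPase Gimap6 differed by -4.60, the keratin Krt18 by -4.68, Pcp4l1 by -4.61 and the linker histone H1f0 by -3.76, and the pseudogene 9030619P08Rik was also among the 20. With TPM averaged before the log the differences were smaller, at -2.90 for Cd63, -3.35 for Ltb, -2.79 for Ldhb and -3.16 for Gimap6, while Serpinf1 stood at -5.64.

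**Figure D4:**
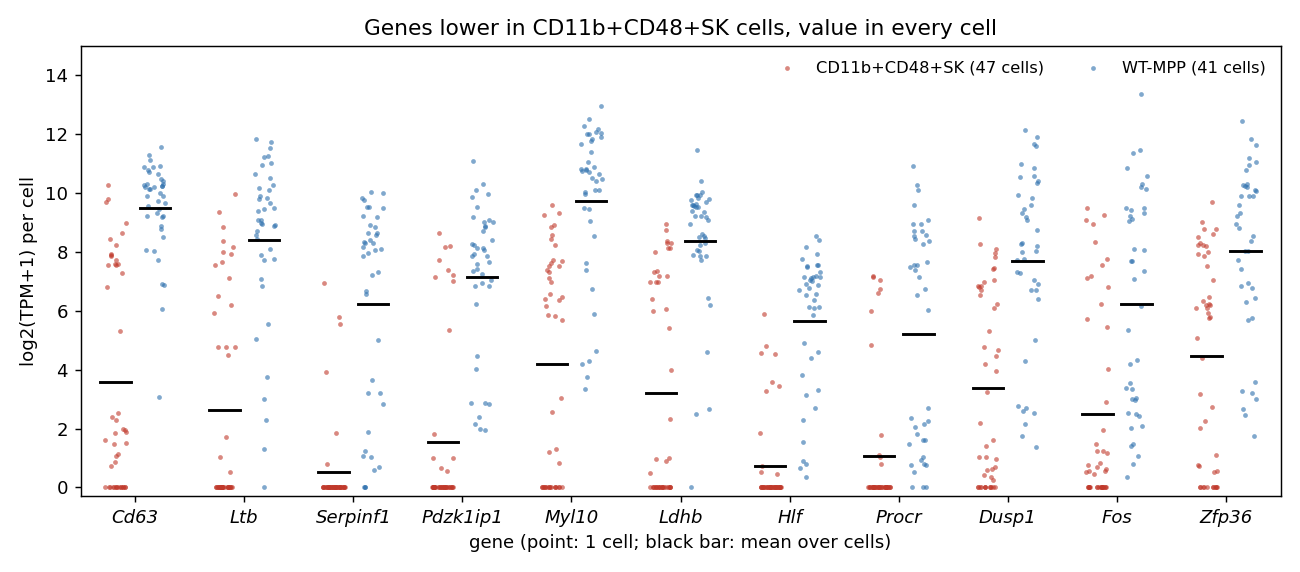
Value of 11 of the lower genes in every cell, as log2(TPM+1), with CD11b+CD48+SK cells in red (47), WT-MPP in blue (41) and the mean over cells as a black bar. Hlf and Pdzk1ip1 lie at or near 0 in most CD11b+CD48+SK cells, while Dusp1, Fos and Zfp36 are spread over the range in that population.

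Immediate early genes, which are switched on within minutes of a stimulus and also by handling of tissue, formed the other lower group. Of 35 genes 28 were compared, 7 (25%, against 1.1% of all genes) were lower by 2 or more (13 scaled) and none was higher, with a median of -1.0 (scaled -1.84). Dusp1, a phosphatase of MAP kinases, ranged from 1.56 to 4495 TPM in WT-MPP (median 291) and from 0 to 566 TPM in the CD11b+CD48+SK cells (median 3.54), a difference of -4.34. Fos, a subunit of AP-1, had medians of 135 and 0.526 TPM and a difference of -3.72. Zfp36, which encodes tristetraprolin, had medians of 445 and 54.6 TPM and a difference of -3.58, Rgs1, a regulator of G-protein signalling, differed by -4.70, Ppp1r15a by -3.71 and Egr1 by -2.98. CD11b+CD48+SK cells expressed 8 to 22 genes of the list (median 15) and WT-MPP cells 15 to 24 (median 19). How long the sorted cells waited before lysis is not given in the sources used here, and its part was not tested.

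The promoters of Dusp1 and Ppp1r15a, both low in the CD11b+CD48+SK cells, are shown because they hold the full CRE motif (TGACGTCA, its own reverse complement), marked in capitals, which binds CREB and AP-1 family factors. It starts 143 bases before the start site in Dusp1 and 12 bases before it in Ppp1r15a. A match was found in 3 of 20 immediate early genes with a promoter (15%), of which Btg2, with a difference of 1.73, was not lower, in 3.52% of compared genes and in 1.88% of all promoters. The median difference was -3.71 in these 3 genes and -0.83 in the other 17.
Dusp1 (chr17:26508473-26508722, minus strand): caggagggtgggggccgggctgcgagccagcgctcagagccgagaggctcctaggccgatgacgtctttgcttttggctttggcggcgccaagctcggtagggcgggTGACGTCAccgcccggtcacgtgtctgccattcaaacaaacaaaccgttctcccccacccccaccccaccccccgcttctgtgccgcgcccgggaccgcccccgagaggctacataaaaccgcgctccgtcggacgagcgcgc
Ppp1r15a (chr7:45526269-45526518, minus strand): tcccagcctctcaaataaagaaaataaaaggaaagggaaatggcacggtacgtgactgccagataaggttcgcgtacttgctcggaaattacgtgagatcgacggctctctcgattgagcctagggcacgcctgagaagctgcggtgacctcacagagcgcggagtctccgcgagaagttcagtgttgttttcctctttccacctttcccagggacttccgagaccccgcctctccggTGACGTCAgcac

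For the myeloid group, the promoter of Mpo is shown with the PU.1 motif (GAGGAAGT, both strands), bound by the master factor of myeloid cells, 224 bases before the start. It occurs in 3 of 19 myeloid markers with a promoter (15.8%), in 3.41% of compared genes and in 3.28% of all promoters. The median difference was 0.81 in these 3 markers and 1.0 in the other 16.
Mpo (chr11:87793534-87793783, plus strand): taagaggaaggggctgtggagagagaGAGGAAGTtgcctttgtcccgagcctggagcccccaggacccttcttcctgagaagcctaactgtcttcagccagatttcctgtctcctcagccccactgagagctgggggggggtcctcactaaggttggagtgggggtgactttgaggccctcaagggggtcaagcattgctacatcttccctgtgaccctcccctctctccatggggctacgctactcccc

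Interferon-stimulated genes were described from a list of 50, of which 47 were compared. Of these 3 (6.38%, against 1.1% of all genes) were lower by 2 or more (7 scaled) and none was higher, and the median was -0.47 (scaled -0.85). Ifitm1, a membrane protein that restricts virus entry and is abundant in HSC, ranged from 857 to 10422 TPM in WT-MPP (median 3140) and from 0 to 3169 TPM in the CD11b+CD48+SK cells (median 391), with 33 of 47 below the lowest WT-MPP cell and a difference of -3.47. Ifi44 and Gbp6 were expressed in 21 and 14 of 41 WT-MPP cells and were listed at 0 in all 47 CD11b+CD48+SK cells (upper limit 6.38%). The recipients had been given pIpC, an inducer of interferon, and WT-MPP had not; its part was not tested.

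Among the Hox genes and their cofactors 11 of 25 were compared, and 2 (18.2%, against 5.29% of all genes) were higher by 2 or more and 1 (9.09%, against 1.1%) lower. Besides Hoxb5, Pbx4 was higher, at 2.42 (scaled 1.83), and Meis1, the cofactor that marks HSC, was lower, with medians of 1.3 and 85.9 TPM and a difference of -2.55 (scaled -3.22). Hoxa10 differed by -1.81. Hlf and Hoxb5 were expressed together in 8 of 47 CD11b+CD48+SK cells, Hoxb5 without Hlf in 35. In the 40 compared transcription factors of blood lineages 1 (2.5%, against 5.29% of all genes) was higher by 2 or more, Satb1, and 1 (2.5%, against 1.1%) lower, Mycn at -2.62 (scaled -3.38), with a median of 0.24 that turned to -0.18 when scaled. Runx3 differed by 1.91 and Gata3 by -1.80.

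For reference, the 20 genes at each end had the following own levels in the HSC populations. They were chosen as farthest from WT-MPP in the CD11b+CD48+SK cells. That choice favours other populations lying above these cells for the lowest genes and below them for the highest. Over the 20 lowest genes the CD11b+CD48+SK cells had a median of the mean log2(TPM+1) of 2.60. It was 7.31 for WT-MPP, 8.26 for BM HSC of adult marrow and 6.91 for FL HSC of fetal liver. BM HSC lay above the CD11b+CD48+SK cells for 20 of 20 of these genes and FL HSC for 18, the exceptions being Rgs1 and Myl10. Over the 20 highest genes the medians were 7.10, 1.28, 0.33 and 1.01 in the same order, and FL HSC exceeded the CD11b+CD48+SK cells for 1 gene, Tipin, at 7.48 against 6.81.

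**Figure D5:**
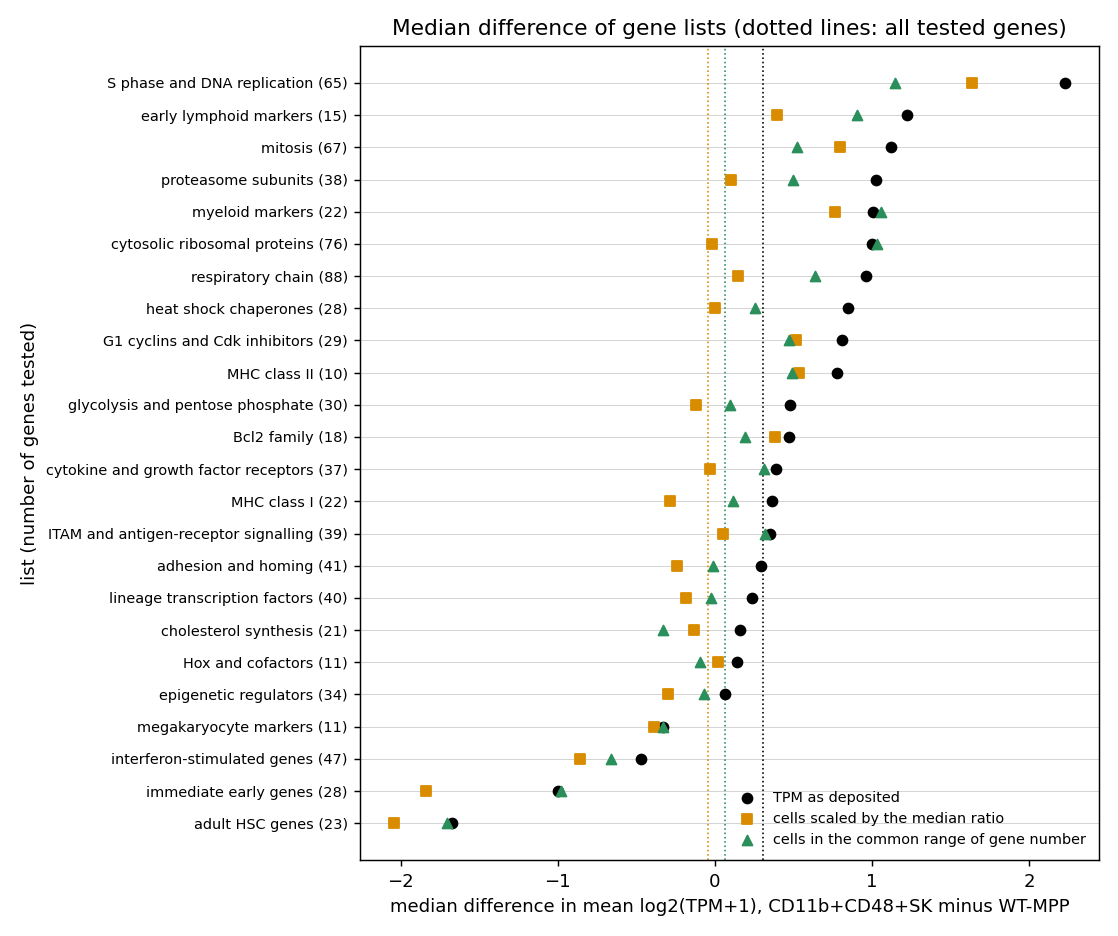
Median of the difference in mean log2(TPM+1), CD11b+CD48+SK minus WT-MPP, for each list with at least 10 compared genes, from the deposited values (circles), from cells scaled by the median ratio (squares) and from cells within the common range of gene number (triangles), with the all-gene median of each as a dotted line of the same colour. The S phase list lies highest at 2.23, 1.64 and 1.15, and the adult HSC list lowest at -1.67, -2.04 and -1.71.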

How the data were processed

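Single cells were sorted, their cDNA amplified with the Discover-sc WTA Kit V2 and libraries made with the TruePrep DNA Library Prep Kit V2 and sequenced on an Illumina NextSeq. Per the submitters' processing notes, the authors used HISAT2 2.1.0, SAMtools 0.1.19, StringTie 1.3.4 and mm10, and the deposited values are TPM, which sum to 1000000 in every cell. Each column is 1 cell, and 1 of 181 columns, named as a WT-MPP cell but without a sample of its own, was not used. No cell was filtered out, and no doublets were sought since each library came from 1 sorted cell. TPM depends on gene models, so genes that share exonic bases on opposite strands (Cd52 and Crybg2, Lat2 and Rfc2, Fen1 and Tmem258, Dusp1 and Ergic1, Hoxb5 and Hoxb5os) or have near-identical copies (globin, H2-Q and ribosomal protein genes) are uncertain.

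Values were averaged over cells as log2(TPM+1), and genes reaching a TPM of 1 in 10% of the cells of either population were kept. The pseudocount of 1 makes differences of genes at low levels smaller. Shares of cells have 95% exact Clopper-Pearson intervals, and for 0 cells the limit is 3 cells of the total. The labels name no animal, so nothing was tested between populations and a call means a difference past 2 or a share past 50 points. The 20 largest differences at each end among genes expressed in at least 50% of either population, Hoxb5, the sort markers and up to 4 genes with the largest differences of each of 32 hand-written lists were named, and further list members and cell type markers were named after their values were seen. Some genes picked by this rule are not reported here. The members and lists were chosen with earlier results of these data known. Promoters (RefSeq, GRCm38.p6, 250 bases before to 50 after the start) were matched by symbol or older symbol. The calculation was tested on simulated data. Python 3.11.15, numpy 2.4.6, pandas 2.3.3, scipy 1.17.1 and matplotlib 3.10.9 were used. Other settings of pseudocount, averaging, filter, detection limit, cell scaling and gene number range were tried.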

Additional observations from a re-analysis of the deposited data

How the results depend on the processing

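The counts of genes past the limits depended on the processing. With a pseudocount of 0.1 the count of genes higher by 2 or more was 1184 and of lower genes 355, and with 10 the counts were 64 and 26. With log2 of the mean TPM plus 1 in place of the mean of log2(TPM+1), 365 genes were higher and 622 lower, and 92 of the 510 higher and 83 of the 106 lower genes stayed past the limits. Scaling by the median ratio gave 236 and 248, and the cells in the common range of gene number 239 and 164, with 225 of the 510 and 99 of the 106 retained. The median difference over all genes, 0.31, became 0.49 and 0.0858 with the pseudocounts of 0.1 and 10, -0.31 with log2 of the mean, -0.046 with the median ratio, 0.14 with scaling on the genes of 80% of both populations, 0.0319 without a filter, 0.48 with a filter of 25% of cells and 0.065 in the common range. The number of genes with a share higher by 50 points, 72, became 41 in the common range, and of those lower by 50 points, 22, became 9 with detection at a TPM of 5 and 69 with any value above 0. The cause of these changes was not tested. Among 792 values of 132 named genes in other settings 303 moved by over 1.5 times or changed sign and 489 did not, and no difference past 2 changed sign, while the medians of 15 of 32 lists did, so the direction of those lists is not fixed. No paired analysis was possible because each population is 1 sample. The depth per cell is unknown, and genes expressed in few cells have wide intervals.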

Other observations

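Genes of energy metabolism and protein turnover are given beside the share of all genes higher by 2 or more, 5.29%, and lower by 2 or more, 1.1%. Of 76 compared cytosolic ribosomal protein genes 73 lay above the all-gene median of 0.31 and 2 (2.63%) were higher by 2 or more, with a median of 1.0 that turned to -0.017 when cells were scaled by the median ratio. Their summed level ran from 115215 to 224127 TPM in the CD11b+CD48+SK cells and from 57597 to 156326 TPM in WT-MPP. Of 88 compared respiratory chain genes 5 (5.68%, near the share of all genes) were higher by 2 or more (1 scaled), with a median of 0.96 (scaled 0.15), led by Ndufv1 at 2.88 and Ndufa10 at 2.76. Of 38 proteasome subunits 5 (13.2%) were higher by 2 or more (2 scaled), with a median of 1.03 (scaled 0.10), led by Psmd13 at 3.95. Of 28 compared heat shock chaperones 2 (7.14%) were higher by 2 or more (0 scaled), the chaperonin subunits Cct2 and Cct6a. In the glycolysis and pentose phosphate list 2 of 30 (6.67%) were higher, Pgls and Pgd of the pentose phosphate pathway at 2.79 and 2.73, and 2 lower, Ldhb and the glucose transporter Slc2a3 at -2.40, with a median of 0.48 that turned to -0.12 when scaled.

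Receptors and surface molecules differed gene by gene, and their counts stand beside the same shares of all genes, 5.29% higher and 1.1% lower by 2 or more (2.45% and 2.57% scaled). Of 10 compared MHC class II genes 2 (20%, against 5.29%) were higher by 2 or more, H2-Ab1 at 3.34 and H2-Ob at 2.86, and the median of 0.78 (scaled 0.54) turned to -0.39 when TPM was averaged before the log. None of 22 compared MHC class I genes passed 2, and their median of 0.36 turned to -0.28 when scaled. Of 37 compared cytokine receptors 4 (10.8%, against 5.29%) were higher by 2 or more (2 scaled), among them Tnfrsf1a at 2.93 and Il3ra at 2.49, and 1 was lower, with a median of 0.39 (scaled -0.029). Of 39 compared ITAM and antigen-receptor signalling genes 4 (10.3%, against 5.29%) were higher by 2 or more (3 scaled), Lat2, Tespa1, Tyrobp and Btk, and none lower, with a median of 0.35 that turned to -0.21 when TPM was averaged before the log. Of 41 adhesion and homing genes 10 (24.4%, against 5.29%, Cd48 of the gate among them) were higher by 2 or more and 4 (9.76%, against 1.1%) lower, the latter Cd63, Emcn, F11r and Esam, with a median of 0.29 (scaled -0.24). Among these Itgal, the partner chain of CD18 in LFA-1, differed by 3.14 and the tetraspanin gene Cd53 by 3.85.

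No gene passed 2 on the deposited scale among 21 cholesterol synthesis genes (median 0.16, scaled -0.13), 18 Bcl2 family genes (median 0.48, but -0.04 when TPM was averaged before the log), 34 epigenetic regulators (median 0.06, scaled -0.30), 8 fetal and imprinted genes (median -0.52, scaled -1.02) and the 1 compared sex-linked gene. Ndn, Phlda2 and Grb10 of the imprinted genes were expressed in 11, 11 and 8 of 41 WT-MPP cells and listed at 0 in all 47 CD11b+CD48+SK cells (upper limit 6.38%).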
